A study of Mus musculus with 4 samples.

Results

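A set of 181 genes was almost without reads in control hematopoietic stem and progenitor cells (HSPC) of the mouse and was counted in both libraries of caNIK HSPC. A gene belonged to the set when it had at most 3 reads summed over the 2 control libraries and at least 20 reads in each of the 2 caNIK libraries. Of 24015 genes counted, 199 met these limits, and 18 of them were left out because their symbols begin with Serpin, Kcn, Col, Tnfrsf, Tnfsf, Ccl, Cxcl, Il, Hbb, Hba or Apol. The members were chosen by the raw counts of both groups, so the rise from control to caNIK is a description here and was not tested, and by the rule no member's groups overlap.

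The cells had been sorted as HSPC, and RNA-seq libraries were made from 2 control and 2 caNIK samples. In caNIK mice, a mutant of the kinase NIK that TRAF3 cannot target sits at the Rosa locus behind a loxP-flanked stop, and Vav-iCre removes the stop in the blood system. The labels call the other group only "control" and do not give its alleles, so it is not known here whether those mice carried Vav-iCre or the unrecombined Rosa allele. The sources used here do not name the sort markers, the age, or whether each library came from a separate mouse, so p-values measure only the spread between libraries, which may be technical. Vav-iCre acts across blood cells and is not limited to HSPC.

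NIK starts the non-canonical NF-kB pathway, in which p100 is processed to p52 and pairs with RelB. The pathway is known for its work in lymphoid organ stroma, B cells, dendritic cells and the medullary epithelium of the thymus. In that epithelium the nuclear protein AIRE drives low transcription of many genes that are otherwise limited to single tissues. Blood progenitors usually keep genes of brain, muscle, skin or germ line silent.

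Library totals lay between 18574452 and 23162766 counts. Levels are TMM-scaled CPM, in which counts are divided by the effective library size. Errors are SD over n = 2 libraries. The correlation of log2 CPM over genes was 0.981 for the control pair, 0.979 for the caNIK pair and 0.869 to 0.885 for pairs from different groups. The NIK gene Map3k14 had 582 and 588 control reads and 3305 and 3989 caNIK reads. The progenitor marker Kit stood at 610 and 613 CPM in control and 558 and 506 CPM in caNIK, and all 10 HSPC markers were detected. In edgeR's test, 2 of the 10 were higher in caNIK (Ly6a and Gata2) and 3 lower (Cd34, Lmo2 and Runx1). The stem and progenitor antigen gene Cd34 fell from 793 and 642 CPM to 143 and 84.1 CPM (log2 fold change -2.66 ± 0.28 SE, adjusted p = 0.0013). Summed HSPC markers were 3216 and 3083 CPM in control and 2610 and 2213 CPM in caNIK. Among markers of tissues whose genes appear below, keratins Krt5 and Krt14 of stratified epithelium, Nefl of neurons, and Fezf2 and Ccl21a of thymic medullary epithelium were listed at 0 in all 4 libraries. These were 2 of 15 epithelial, 1 of 10 neuron and glia and 2 of 8 thymic epithelial markers. The others on these lists had reads, such as Krt8 with 38.7 and 8.69 CPM in control and 13 and 11.5 CPM in caNIK. Of those tested, 0 of 11, 2 of 5 and 4 of 5 were higher in caNIK, and 1, 0 and 0 lower. In bulk RNA, fewer cells of a type and less RNA per cell cannot be told apart, and nor can a few cells with many transcripts and many cells with few.

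Together the members took 42 reads in control replicate 1 and 121 in control replicate 2, against 45051 and 41728 reads in caNIK replicates 1 and 2. Of the 181, 105 had no control read, 20 had 1, 25 had 2 and 31 had 3. Control reads fell on 18 members in replicate 1 and on 64 in replicate 2, so the control libraries were not equally empty. In edgeR's quasi-likelihood test, 181 of 181 members were higher in caNIK at an adjusted p under 0.05, where 13.8% of the 14191 genes tested were higher and 8.21% lower. The members had to differ by the way they were chosen, and nothing is read from that count.

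The limits cut through a continuous range. Just inside, 31 members had 3 control reads, such as Adam33, Ifnlr1, Syt7 and Wnt11. Just outside, 21 genes had 4 control reads and at least 20 in each caNIK library. These included Has2, a hyaluronan synthase (663 and 664 caNIK reads), the kinase gene Pak3 (473 and 834), the adhesion gene Adam23 (1155 and 394) and Ltbp2, a matrix protein that binds elastic fibres (593 and 414). At the other limit, Naalad2 with 20 and 20 caNIK reads, Khdc1a with 90 and 20, Pdyn with 46 and 20 and Lipg with 20 and 29 were members. Nefm, a neurofilament gene, with 23 and 18 caNIK reads, was not, nor was the dopamine transporter gene Slc6a3 with 147 and 18.

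Most members reached low levels in caNIK. The median member stood at 4.41 CPM, in a range from 1.02 to 444 CPM, with 48 members over 10 CPM and 98 under 5 CPM. Ryr3 alone took 20% of all member reads in caNIK, and the 10 members with most reads took 45.3%. Per kilobase of exon, which allows genes to be compared, the median member stood at 1.69 CPM per kb and the median of genes tested at 8.44 CPM per kb. Only 23 of the 181 members lay above that median.

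Ryr3, a calcium release channel of the endoplasmic reticulum known from brain and muscle, was counted 0 and 2 times in control and 9429 and 7908 times in caNIK. With a mean of 444 ± 88.5 CPM, it stood at 28.3 CPM per kb over 15683 exon bases. Cntn1, which encodes the neuronal adhesion protein contactin 1, had no control read and 3070 and 2032 caNIK reads. Pappa2, a secreted protease that frees insulin-like growth factors from their binding proteins, had no control read and 2288 and 1048 caNIK reads. These 3 were the members with over 1000 reads in both caNIK libraries, and each was higher in replicate 1.

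Ordered by length-scaled level, a different gene led. Rcvrn, which encodes recoverin, the calcium sensor of photoreceptors, was counted 963 and 1592 times in caNIK and never in control. Over 1040 exon bases this gave 61.8 CPM per kb, the highest of all members. Gh, the growth hormone gene of the pituitary, came next with 383 and 722 caNIK reads on 862 exon bases (32.1 CPM per kb), ahead of Ryr3. For members with no control read, a fold is a lower bound against 3 reads over both control libraries, and Gh was at least 400-fold higher in caNIK. Onecut2, a homeodomain factor of liver, pancreas and neurons, was 9 in the order by CPM (36.4 ± 35.1) but 75 in the order by length, since its exons span 16234 bases.

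**Figure D1:**
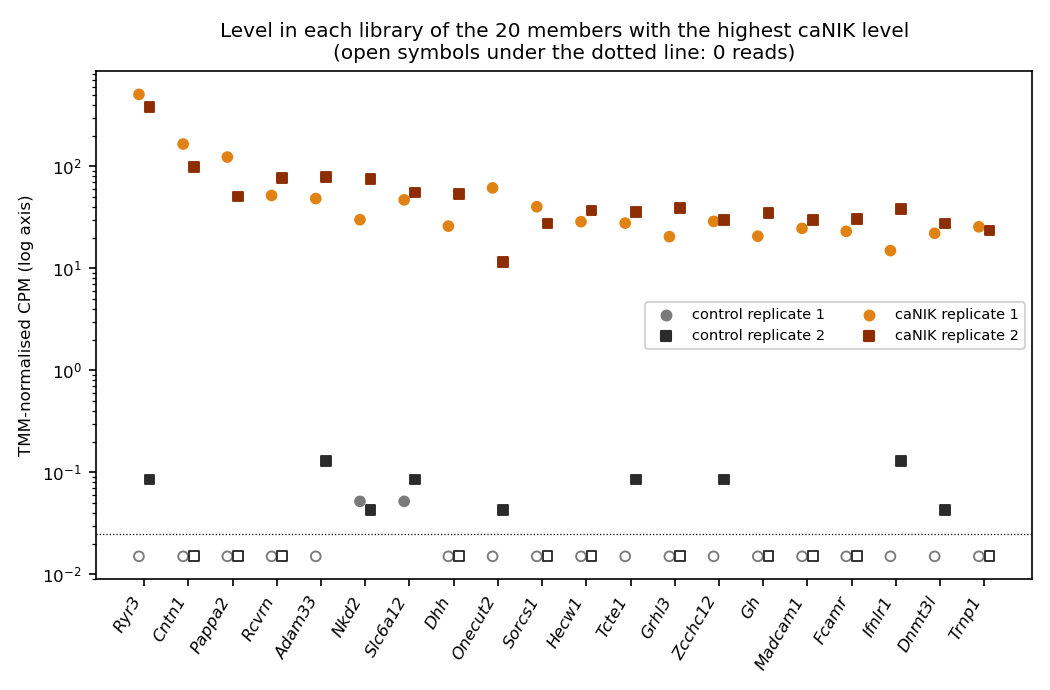
TMM-normalised CPM (log axis) of the 20 members with the highest mean caNIK level, 1 symbol for each of the 4 libraries; open symbols stand for 0 reads. The control libraries lie at 0 or between 0.0426 and 0.128 CPM for every gene shown, and the 2 caNIK libraries of Onecut2 lie furthest apart.

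From textbook knowledge, 138 members could be placed in 11 classes of normal tissue or role, and 43 could not. The classes were assigned after the members were known, and a gene active in several tissues was placed in 1 class only. The most numerous class was neural, with 40 members. No class was tested for enrichment.

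Neural members covered adhesion, vesicle release, ion channels and transmitter transport. Among adhesion and sorting genes, Sorcs1, a sorting receptor of neurons, had 747 and 569 caNIK reads and none in control (at least 476-fold higher). Cntnap2, which encodes the axonal protein Caspr2, had 1 control read and 150 and 149 in caNIK, and Lphn3, a latrophilin of synapses, had 3 control reads and 245 and 452 in caNIK. The calcium sensors of vesicle release differed between caNIK libraries in opposite directions. Syt1, the sensor of fast transmitter release, was counted 366 and 90 times, 4.53-fold higher in caNIK replicate 1 (95% exact counting interval 3.59 to 5.77). Syt7, a synaptotagmin of slower release, was counted 181 and 551 times, which placed replicate 1 at 0.366 of replicate 2 (0.308 to 0.434). Members that shape membrane currents were the neuronal sodium channel gene Scn3a (440 and 89 caNIK reads), Dpp10 (432 and 193) and Dpp6 (57 and 56), whose products associate with Kv4 potassium channels. Transporters included Slc7a10, an amino acid transporter of astrocytes and neurons (245 and 84), and Slc38a3, a glutamine transporter (109 and 38). Hecw1, a ubiquitin ligase of neurons (532 and 766), Zcchc12 (537 and 621) and Trnp1, a nuclear protein of neural progenitors (474 and 488), lay between 24.5 and 32.7 CPM. Near the low end were Pdyn, the precursor of dynorphin peptides (46 and 20), and Sez6 of dendrites (49 and 22). Summed neuron and glia markers were 111 and 128 CPM in control and 184 and 189 CPM in caNIK, and 2 of 5 tested were higher, Tubb3 and the member Syt1.

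Genes of eye and ear numbered 6. Next to Rcvrn stood Cdhr1, the photoreceptor cadherin (494 and 327 caNIK reads, 1 in control), and Stra6, the receptor for retinol-binding protein (318 and 321, none in control). The other 3 were Optc of the eye (4.2 ± 0.398 CPM) and Tectb and Coch of the inner ear (2.97 ± 0.169 and 1.44 ± 0.397 CPM). None of the 6 differed more than 2-fold between the caNIK libraries.

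The 9 genes of muscle and heart were led by Ryr3, and the others lay at 13.1 CPM or under. Tnnc1, the calcium-binding troponin of slow muscle and heart, had 3 reads in control replicate 1 and 139 and 389 in caNIK. Over its 721 exon bases it stood at 18.2 CPM per kb, above the median of genes tested, 8.44 CPM per kb. Myl7, a myosin light chain of the atrium, stood at 4.18 ± 2.41 CPM, Smpx of striated muscle at 4.37 ± 1.95 and Sgcd, a sarcoglycan, at 2.37 ± 0.466. Among listed muscle genes outside the members, 1 of 15 tested was higher. This was Ttn, the giant sarcomere protein titin, which rose from 45 and 25 reads to 6224 and 2989 reads (log2 fold change 7.16 ± 0.57 SE, edgeR adjusted p = 0.00055). Actn2, Neb and Tnnt1 were counted in all 4 libraries and did not pass, and Myh1, Myh2, Myh4 and Mb were listed at 0 in all 4.

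Genes of skin and barrier epithelium numbered 9. Grhl3, a grainyhead-like factor of the epidermal barrier, had no control read and 380 and 805 caNIK reads (29.6 ± 13 CPM). Dsg1a and Dsg1b, which encode the epidermal desmoglein 1, had 393 and 254 and 221 and 153 caNIK reads; they are close copies, so reads may be split between them. Trp63, whose product p63 governs stratified epithelium, had 234 and 81, and the desmosome gene Pkp1 had 100 and 56. Cldn1, a tight junction claudin, was almost equal in the caNIK libraries at 48 and 54 reads. Trp63 and Tmprss11d, an airway protease (123 and 47), were more than 2-fold higher in caNIK replicate 1. Summed epithelial markers were 152 and 44.4 CPM in control and 50.6 and 36.3 CPM in caNIK, and 0 of 11 tested were higher in caNIK.

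The class of signals and their modulators held 14 members, from the hedgehog, Wnt, BMP, Notch and growth factor pathways. Dhh, which encodes the hedgehog ligand desert hedgehog, had no control read and 483 and 1112 caNIK reads, and Hhip, the hedgehog-binding antagonist, had 2 and then 60 and 196. Both were more than 2-fold higher in caNIK replicate 2. The hedgehog target genes Gli1 and Ptch1 did not pass in edgeR's test, with log2 fold changes of 0.07 ± 0.89 and 0.28 ± 0.28 (SE; adjusted p = 0.97 and 0.52). Gli1 stood at 0.571 and 0.469 CPM in control and 0.859 and 0.241 CPM in caNIK. Smo, the membrane transducer of the pathway, was lower in caNIK (log2 fold change -1.43 ± 0.2 SE, adjusted p = 0.0041 in edgeR's test).

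In the Wnt pathway, Nkd2, an inhibitor that binds Dishevelled, had 1 read in each control library and 557 and 1554 in caNIK (52.4 ± 31.8 CPM). Wnt11, a ligand, had 365 and 323 caNIK reads, Sfrp5, a secreted antagonist, 116 and 86, and Cxxc4, an intracellular inhibitor, 44 and 47. Axin2, a Wnt target and no member, rose in the same libraries from 2.65 and 2.17 CPM to 48.7 and 59.1 CPM (log2 fold change 4.49 ± 0.25 SE, edgeR adjusted p = 2e-04). Lef1, another gene of the pathway, did not pass, at 4.88 and 1.66 CPM in control and 6.87 and 2.89 CPM in caNIK (0.58 ± 0.68, adjusted p = 0.59). Gli1, Ptch1, Smo, Axin2 and Lef1 were chosen after the members were known. Among the rest of the class, Bmper, a BMP-binding regulator, was close to equal in caNIK (150 and 172), whereas Gdf10, a TGF-beta family ligand (187 and 51), and Adm, the vasodilator peptide adrenomedullin (172 and 58), were higher in replicate 1.

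Developmental transcription factors numbered 10, of which 7 encode homeodomain proteins besides Onecut2. Onecut2 had 1 control read and 1141 and 240 caNIK reads, a 5.3-fold difference between caNIK libraries (4.6 to 6.11). Gbx1 and Nkx1-2, of the nervous system and caudal embryo, went the other way with 94 and 189 and 85 and 192 reads. Dbx1, of the neural tube, stood at 4.87 ± 0.204 CPM. Prox1, Hoxc6, Irx1, Esrrg and Trp73 lay between 1.38 and 4.69 CPM.

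The 14 germline and reproduction genes were of sperm, oocyte, placenta and milk. Tcte1, a sperm flagellum protein, had 515 and 739 caNIK reads and 2 in control. Dnmt3l, the cofactor of DNA methylation in germ cells, had 409 and 568 and 1 in control, and Piwil4, a Piwi protein, 356 and 236. Csn2, the milk protein beta-casein, had no control read and 353 and 412 caNIK reads, nearly the same level in both libraries (19.4 ± 0.641 CPM). Psg17 and Ceacam15, of placenta, stood at 5.31 ± 2.11 and 5.36 ± 0.131 CPM.

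Endocrine, gut, liver and kidney genes also numbered 14, with a median of 2.46 CPM. Slc6a12, a betaine and GABA transporter of kidney and liver, had 3 control reads and 872 and 1150 in caNIK, a level of 51.1 ± 6.09 CPM. Gh was described above. The others were low: Ces2f, a carboxylesterase, had 75 and 143 caNIK reads, and thyroglobulin (Tg) 86 and 69. The iodide transporter gene of the thyroid, Slc5a5, had 66 and 26, and Abcc8, the sulfonylurea receptor of beta cells, 50 and 52. The insulin genes Ins1 and Ins2 were listed at 0 in all 4 libraries.

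Only 5 members belonged to connective tissue and matrix. Adam33, a metalloprotease of mesenchymal cells, had 3 control reads and 897 and 1637 in caNIK (63.5 ± 21.7 CPM). Matn1, a matrilin of cartilage, had 167 and 32 caNIK reads, Scara5, a ferritin receptor, 62 and 33, and Dpt and Mmp20 lay under 2 CPM. Summed stromal markers were 64.4 and 188 CPM in control and 245 and 160 CPM in caNIK, and 0 of 7 tested passed.

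**Figure D2:**
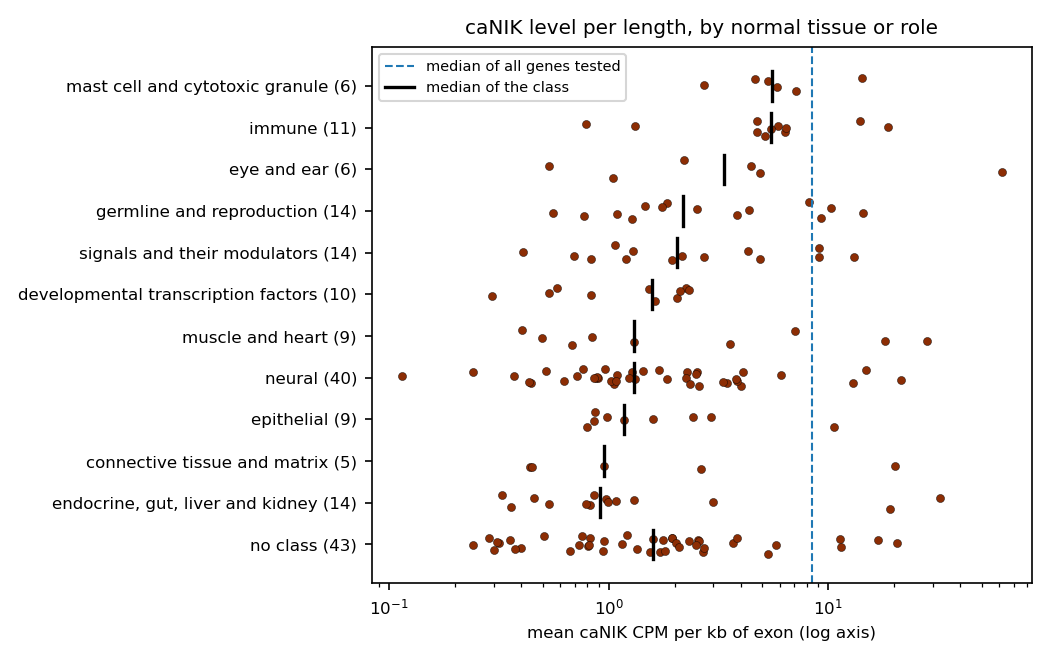
Mean caNIK CPM per kb of exon (log axis) of every member, 1 point a gene, by class with the number of members in brackets; black bars are class medians and the dashed line is the median of all genes tested, 8.44 CPM per kb. Every class median lies under that line; it was highest for mast cell and cytotoxic granule genes (5.56) and immune genes (5.49), and Rcvrn is the point furthest right.

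Immune members numbered 11, and 4 of them stood above 14 CPM. Madcam1, the addressin that guides lymphocytes into gut lymphoid tissue, had no control read and 459 and 611 caNIK reads (27.1 ± 3.4 CPM, at least 387-fold higher). Of 7 endothelial markers tested, 0 were higher and 2 lower, with sums of 372 and 361 CPM in control and 170 and 105 CPM in caNIK. Fcamr, an Fc receptor of IgA and IgM, had none and 428 and 633. Ifnlr1, a receptor chain for type III interferon, had 3 control reads and 277 and 791 in caNIK, and Cd40, the co-stimulatory receptor of B cells and antigen-presenting cells, none and 324 and 229. Ccr10, a homing receptor of skin T cells and plasma cells, stood at 11.1 ± 4.69 CPM, Ubd, the ubiquitin-like modifier FAT10, at 4.41 ± 1.74 and Batf3, a factor of cross-presenting dendritic cells, at 4.14 ± 0.747. Among B cell markers, 1 of 8 tested was higher in caNIK (Cd22) and 2 were lower, and among dendritic cell markers 5 of 9 were higher, the member Batf3 included, and 1 was lower. Summed B cell markers were 93.6 and 62.5 CPM in control and 101 and 53.8 CPM in caNIK, and dendritic cell markers 665 and 544 and then 804 and 761 CPM. In the latter sum, Flt3 fell from 593 and 472 to 113 and 58.3 CPM and Fscn1 rose from 51.7 and 51.9 to 598 and 634 CPM. The part of such cells in these members was not tested.

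Promoter windows of members were searched for the NF-kB consensus on both strands, in RefSeq windows of GRCm38.p6. The table had an entry for 130 of the 181 members (71.8%). This is under the 80% needed for a share over members, so that comparison is void. Of all 32851 windows, 4.51% held a match. The TATA box (TATAAA, 13.6% of windows) and AP-1 (TGANTCA, 7.81%) were also searched on both strands. Sequences of 4 members with an NF-kB match are shown because they span an addressin, an interferon and NF-kB responsive modifier, a transporter and a photoreceptor gene. Each line gives the 250 bases before an annotated start, 5′ to 3′ on the gene's strand, with the NF-kB consensus match in capitals.
Madcam1: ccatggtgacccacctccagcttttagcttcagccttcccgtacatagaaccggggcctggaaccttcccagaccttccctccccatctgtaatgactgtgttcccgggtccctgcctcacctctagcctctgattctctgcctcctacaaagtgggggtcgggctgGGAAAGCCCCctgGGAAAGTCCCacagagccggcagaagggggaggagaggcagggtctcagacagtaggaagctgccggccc
Ubd: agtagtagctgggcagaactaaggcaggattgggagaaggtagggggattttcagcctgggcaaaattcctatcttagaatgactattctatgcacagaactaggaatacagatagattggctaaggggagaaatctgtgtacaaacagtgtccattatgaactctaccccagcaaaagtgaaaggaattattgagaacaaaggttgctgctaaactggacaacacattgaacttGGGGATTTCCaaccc
Slc6a12: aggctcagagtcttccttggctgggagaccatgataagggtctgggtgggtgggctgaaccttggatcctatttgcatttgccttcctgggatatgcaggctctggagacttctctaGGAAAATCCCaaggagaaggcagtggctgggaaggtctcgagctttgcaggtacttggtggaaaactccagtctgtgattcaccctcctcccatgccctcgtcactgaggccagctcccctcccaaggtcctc
Cdhr1: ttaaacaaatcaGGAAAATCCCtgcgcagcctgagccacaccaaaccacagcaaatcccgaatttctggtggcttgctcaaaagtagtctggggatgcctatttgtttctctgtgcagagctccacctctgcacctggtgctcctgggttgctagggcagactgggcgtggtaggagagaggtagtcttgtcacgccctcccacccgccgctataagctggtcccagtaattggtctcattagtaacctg

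The Madcam1 window (chr10:79664309-79664558, plus strand) held 2 matches, beginning 83 and 70 bases before the start, and the others held 1 each. The Ubd match (chr17:37193642-37193891, plus strand) began 15 bases before the start. In Slc6a12 (chr6:121342324-121342573, plus strand), which has 5 annotated windows, it began 133 bases before the start of the window shown. In Cdhr1 (chr14:37098348-37098597, minus strand) it began 238 bases before the start. The Slc6a12 window also held an AP-1 match, apart from the NF-kB match. A match says only that these letters are present.

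All 6 members of the mast cell and cytotoxic granule class were more than 2-fold higher in caNIK replicate 1, by 2.18-fold to 4.51-fold. Mcpt2, a mucosal mast cell protease, had 458 and 113 caNIK reads, Tpsg1, a membrane tryptase, 214 and 61, and Fcer1a, the alpha chain of the IgE receptor, 195 and 77. Gzmc, a granzyme of cytotoxic lymphocytes, had 122 and 36, Mcpt1 72 and 34, and the pseudogene Mcpt-ps1 147 and 75; reads of these similar proteases may be split among them. The 6 fixed mast cell markers, of which Fcer1a is 1, summed to 50.5 and 49.1 CPM in control and to 2124 and 1123 CPM in caNIK replicates 1 and 2. Of the 6, 5 were higher in caNIK in edgeR's test. Klrb1b, an NK cell receptor gene among the immune members, had 394 and 106 caNIK reads, and the NK genes Ncr1 (18.2 and 3.23 CPM) and Klrb1c (5.75 and 0.916 CPM) differed in the same direction. Of 7 markers of T and NK cells tested, 1 was higher, Ncr1, and their sum was 107 and 55.1 CPM in control and 187 and 67.1 CPM in caNIK. The part of mast or NK cells in these members was not tested.

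The caNIK libraries were also compared with each other. The rule asked for at least 20 reads in each caNIK library, which limits how far apart the libraries of a low member can lie, so the background genes were held to the same limit. That limit does not match the groups in level. The median member stood at 4.41 CPM and the median of genes tested at 27 CPM, and 16 members lay above the latter. Low counts spread more widely, and the part of level in the shares below was not tested. Replicate 1 was more than 2-fold above replicate 2 in 44 of 181 members, against 6.15% of the 12692 genes with at least 20 reads in each caNIK library. Replicate 2 was more than 2-fold above replicate 1 in 12 members, against 1.26%. Among the 54 members with at least 100 reads in each library, 25.9% were more than 2-fold apart, against 3.72% of all genes with as many reads. The median log2 ratio of replicate 2 over replicate 1 was -0.30 in members and -0.01 in those 12692 genes. For 113 members the exact 95% counting interval of the ratio excluded equal levels, 74 with replicate 1 higher and 39 with replicate 2 higher. These intervals compare the 2 libraries and cover counting error only. The same count was not made for all genes, so it is not read as particular to the members.

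By class, 16 of the 40 neural members were more than 2-fold higher in replicate 1 and 2 in replicate 2. Of the endocrine, gut, liver and kidney class, 1 of 14 was higher in replicate 1 past that fold and 0 in replicate 2. The largest differences towards replicate 1 were in Tmem132c (292 and 51 reads, 6.38-fold, 4.72 to 8.77), Matn1 (5.81-fold, 3.96 to 8.77) and Scn3a (5.51-fold, 4.38 to 7). Towards replicate 2 they were in Hhip (replicate 1 at 0.341 of replicate 2, 0.251 to 0.457), Syt7 and Tmem63c, an osmosensitive channel relative (0.381, 0.301 to 0.48). Zcchc12, Trnp1, Csn2 and Cldn1 were members whose intervals included equal levels.

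**Figure D3:**
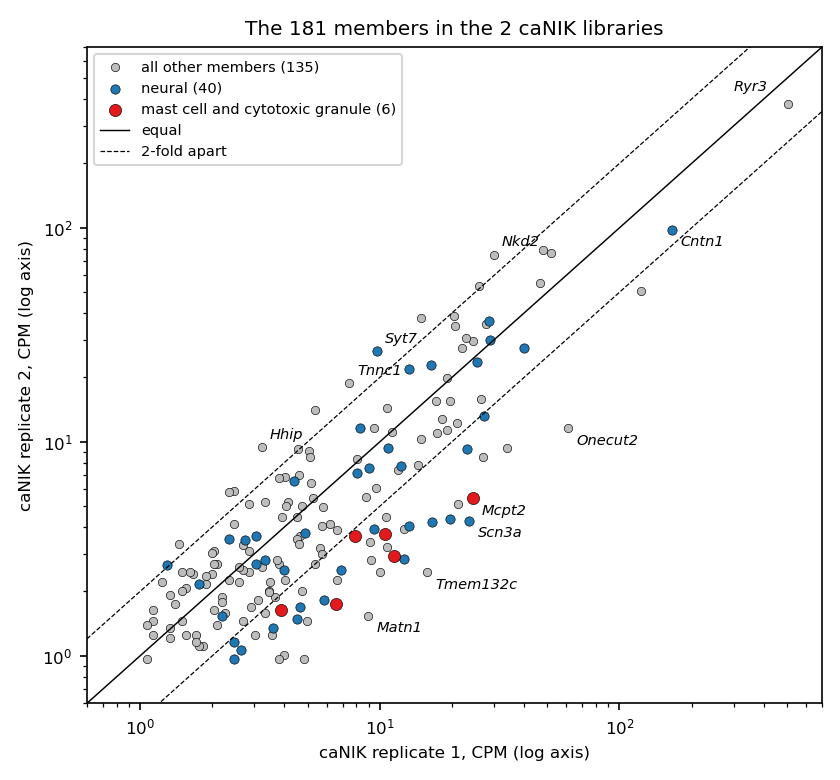
CPM of the 181 members in caNIK replicate 1 (x axis) and caNIK replicate 2 (y axis), both log axes, with lines of equal level and of 2-fold difference. All 6 mast cell and granule genes lie under the lower 2-fold line, 44 members lie under it in all, and 12 lie over the upper line.

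The members were spread over 20 chromosomes, with 3 to 18 on each. In the RefSeq gene order of GRCm38, 66 of 181 members (36.5%) had at least 1 adjacent counted gene that was higher in caNIK, against 18.1% of the tested genes with a position. Leaving out neighbours that were members themselves, 54 members (29.8%) had such a neighbour, and 115 members had none at all. The share of tested genes was not recomputed under that restriction. No share was computed for the other genes higher in caNIK, so the trait may not be particular to members. The shares are descriptions with no test.

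Several members lay beside genes that rose in edgeR's test. Dnmt3l lies between Aire, the regulator of tissue-restricted genes, and Icosl, a co-stimulatory ligand. Aire rose from 0.893 to 625 CPM and Icosl from 3.57 to 328 CPM, with log2 fold changes of 9.45 ± 0.31 and 6.52 ± 0.18 (SE; edgeR adjusted p = 4.7e-05 for both), whereas Dnmt3l, whose gene body overlaps Aire, reached 24.7 ± 3.83 CPM. Adam2, a sperm fertilin gene at 3.26 ± 0.787 CPM in caNIK, lies beside Ephx2, an epoxide hydrolase gene that rose from 1.28 to 781 CPM (9.21 ± 0.39, adjusted p = 8e-05), and Gulo. Slc6a12 lies beside its relative Slc6a13, which rose from 7.39 to 113 CPM (3.93 ± 0.26, adjusted p = 0.00028). Tnnc1 lies beside the semaphorin gene Sema3g, which rose from 0.796 to 46.9 CPM. Tpsg1 lies beside the mast cell tryptase gene Tpsb2 and Mcpt-ps1 beside the chymase gene Cma1.

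In 6 pairs, members were adjacent to each other. These were Cntn1 with Pdzrn4, a ubiquitin ligase relative (15.5 ± 3.77 CPM), Dsg1a with Dsg1b, Mcpt1 with Mcpt2, Sfrp5 with Golga7b, Ceacam15 with Ceacam-ps1, and Ntn5 with Sec1.

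**Figure D4:**
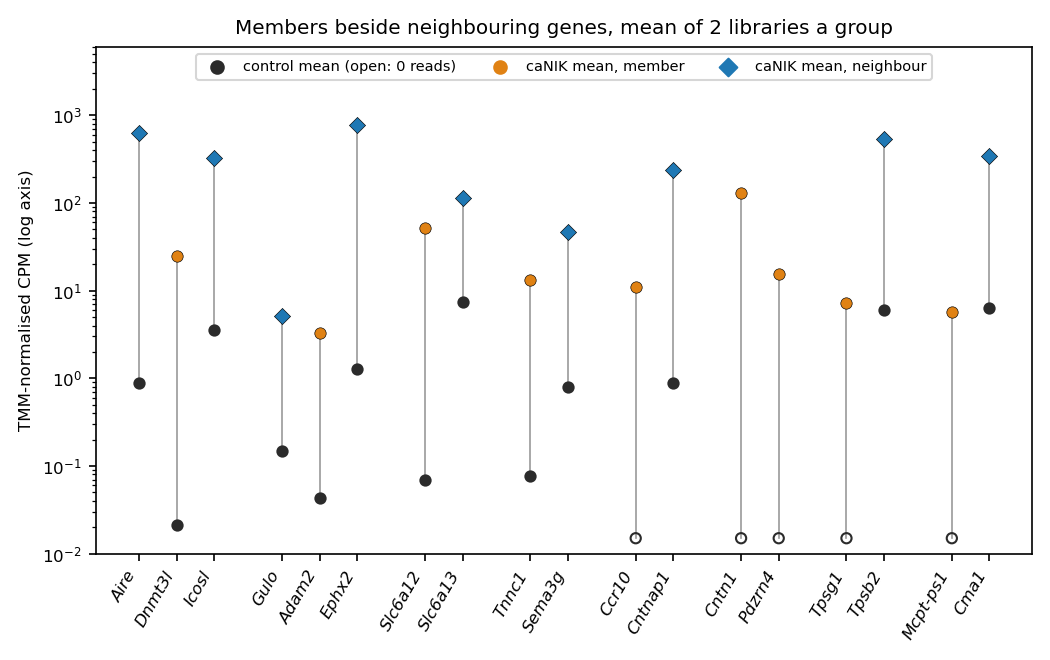
Mean CPM (log axis, n = 2 libraries a group) in control (black, open for 0 reads) and caNIK (coloured) of 8 sets of adjacent genes, with members as orange circles and their neighbours as blue diamonds. In the set of Aire, Dnmt3l and Icosl, all 3 genes rise, and Dnmt3l has the lowest CPM in both groups.

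Gene bodies of 41 members overlapped another counted gene in that annotation, and no source used here gives the strand setting of the counting. In 12 of them the overlapping gene was higher in caNIK and at a higher caNIK level than the member, so part of the member's reads may belong to it. Among these were Dnmt3l with Aire, Ccr10 with Cntnap1 (0.882 to 235 CPM), Tcte1 with Tmem151b (0.975 to 47.2 CPM), Tg with Sla (58.1 to 132 CPM) and Abhd16b with Zbtb46 (4.86 to 30.8 CPM). The part of overlapping reads in these counts was not tested. Ryr3, Cntn1, Pappa2, Gh and Csn2 overlapped no other counted gene. Rcvrn overlapped Glp2r, which stood at 4.82 CPM in caNIK, under the 64.2 ± 17.7 CPM of Rcvrn.

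Tissue lists written out from general knowledge were used to count how many near-silent genes of each crossed the limits. Over all counted genes, 8556 had at most 3 control reads, and 2.33% of them had at least 20 reads in each caNIK library, while 85.3% also stayed at 3 reads or fewer over both caNIK libraries. In the neuronal and synaptic list, 19 of 36 genes were near-silent in control; 3 became members (Cntn1, Cntnap2 and Syt1) and 14 stayed at 3 reads or fewer. In the photoreceptor and sensory list it was 1 of 12 (Rcvrn), in the muscle and calcium release list 2 of 12 (Ryr3 and Tnnc1) and in the epithelial structure list 2 of 5 (Cldn1 and Pkp1). None of 14 near-silent genes in the gut, liver and pancreas list and none of 15 in the germ cell list crossed. Among secreted signals and morphogens 3 of 17 did (Dhh, Wnt11 and Pappa2), and a further 10 lay between the limits. In the list of lymphoid organ and dendritic cell genes, linked to NF-kB from general knowledge, 3 were near-silent in control. Of these, 2 crossed (Cd40 and Madcam1), while Cd70 lay between the limits. Cntn1, Rcvrn, Ryr3, Dhh, Pappa2 and Cd40 were known to rise when these lists were written.

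The lists' other genes, with members left out, stood as follows beside all 14010 tested genes that were no members, of which 12.7% were higher, with a median log2 fold change of -0.01. Of neuronal and synaptic genes, 5 of 14 were higher and 0 lower (median 1.22), among them the glutamate receptor gene Gria2 (87.4 and 27.9 CPM in caNIK). Of photoreceptor and sensory genes, 0 of 9 were higher and 1 lower (median -0.06), and of muscle and calcium release genes 1 of 15 and 0 (0.36). Epithelial structure genes had 4 of 25 higher and 2 lower (-0.60), and gut, liver and pancreas genes 2 of 15 and 0 (-0.68). In both lists the control libraries were uneven. Summed over the whole epithelial list, levels were 232 and 79.6 CPM in control and 160 and 92.8 CPM in caNIK. For the gut, liver and pancreas list they were 361 and 133 CPM and then 302 and 296 CPM. Both caNIK sums thus lay under control replicate 1 and above control replicate 2, which limits what these 2 medians show. Germ cell genes had 4 of 9 higher and 1 lower (1.29), and secreted signals and morphogens 4 of 10 and 0 (0.51). The list of lymphoid organ and dendritic cell genes, linked to NF-kB from general knowledge, had 18 of 24 higher and 0 lower (2.96). That list holds 2 members, Madcam1 and Cd40. All these lists were written with earlier results of these data known, so their counts are descriptions only.

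Of the 8 fixed markers of thymic epithelium, not all of them limited to its medulla, 4 of 5 tested were higher in caNIK. These were Aire, Tnfrsf11a, Spib and Pou2f3. Aire and Spib were also on the list of lymphoid organ and dendritic cell genes, so the markers are not all particular to thymic epithelium. Among those not tested, Fezf2 and Ccl21a were listed at 0 in all 4 libraries. The sum of the 8 was 7.52 and 5.5 CPM in control and 959 and 787 CPM in caNIK, and most of the caNIK sum was Aire. Foxn1, the defining factor of thymic epithelium, had 0 control reads and 16 and 0 caNIK reads. The part of Aire in the members' levels was not tested.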

How the data were processed

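RNA-seq of sorted mouse HSPC was available for 2 control and 2 caNIK libraries, grouped by sample title. The authors deposited whole-number read counts per gene symbol, with no normalization, per the file headers. Tools in the submitters' processing notes, listed with no role or order, were featureCounts 1.5.0, TopHat2 2.1.0, DESeq2 1.10.1 and FastQC, with the build mm9. The sources used here do not give the annotation, strand setting or treatment of multi-mapping reads, and reads of close copies and overlapping genes cannot be told apart.

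Counts were scaled by TMM, filtered with filterByExpr and tested with edgeR 4.0.16 (glmQLFit, glmQLFTest, group as the only term, R 4.3.3), with Benjamini-Hochberg adjustment over 14191 genes. Alternatives were DESeq2 1.42.0, limma-voom (limma 3.58.1), other scalings and filters, a replicate block, left-out libraries and other limits of the rule. Exon lengths are unions of GENCODE M21 basic exons, gene order and promoters are from RefSeq, all on GRCm38, which differs from mm9, so lengths are approximate. Ratios between caNIK libraries have exact 95% binomial intervals. The SE of a log2 fold change was back-calculated as its absolute value over the square root of edgeR's F statistic.

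Members and lists were chosen with earlier results of these data known. The rule for named genes took the 20 members with the highest caNIK level, the 3 highest of each class, the 3 at either end of the ratio between caNIK replicates and members of a listed gene set. The 11 members with predicted, clone or microRNA symbols were counted and, apart from 2 microRNA entries, not named. Some members that the rule names are not reported here. Genes named outside that rule were picked with their values known. Library totals lay between 18574452 and 23162766 counts, and 20 reads is about 1 CPM.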

Additional observations from a re-analysis of the deposited data

How the results depend on the processing

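The number of members, 181, followed the limits: 105 genes had no control read at all, 285 met the rule with at least 10 reads in each caNIK library, 123 with at least 40, and 246 with at most 6 control reads. Limits set in CPM gave 199 genes, 177 of them members. With 1 library left out, the rule gave 179 to 258 genes; without control replicate 1 140 of the 179 were members. Over all genes, 1655 to 1968 were higher and 858 to 1387 lower with 1 library left out, against 1964 and 1165. Members past the threshold were then 144 to 181, with 145 without caNIK replicate 1 and 144 without caNIK replicate 2; the lone library was assumed to vary like the other group. DESeq2, limma-voom and other scalings gave 180 or 181. A filter of at least 1 CPM in 2 libraries gave 176, and at least 1 read in any library gave 181.

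With replicate number as a block, 2494 genes were higher, 1766 lower and 181 members passed. Deviations of replicate 1 from its group mean correlated at 0.255 between groups. The labels do not say what the number stands for, so whether libraries with the same number share anything else is not known. The median ratio of caNIK replicate 2 over 1 was -0.29 and -0.38 (log2) under other scalings. Of 92 named levels under other scalings, 1 moved by more than 1 SD (Cldn1), and the largest change was 3.58%. With 2 genes on either side, 92 members had a neighbour that was higher (50.8% against 31% of tested genes). Without overlapping neighbours, an alternative chosen after seeing the data, 56 had one, and no share of tested genes was computed for it. Alternatives for CpG content and motif matches in promoters were not run, since too few members had a sequence. Levels near 1 CPM rest on about 20 reads, where counting error is wide.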

Other observations

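Among the members were 2 microRNA hairpin entries, named here after their values were seen. Mir8116, within the acetylcholinesterase gene Ache, had 41 and 37 caNIK reads, and Ache stood at 10.5 CPM in control and 116 CPM in caNIK. Mir5107, within Cd74, had 32 and 26 caNIK reads, and Cd74 stood at 22.7 and 2492 CPM. Reads on these hairpin entries cannot be told apart from those of the host transcripts. The reverse rule, at most 3 reads over both caNIK libraries and at least 20 in each control library with the same symbols left out, was met by 11 genes.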
